A study of Mus musculus with 10 samples.

Results

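Integrins and laminins form the grip between a cell and the sheet of matrix it stands on. The genes taken were those whose name in the tables is a mouse integrin alpha subunit (Itga), integrin beta subunit (Itgb) or laminin chain (Lama, Lamb, Lamc). This gave 37 genes, 18 alpha subunits, 8 beta subunits and 11 laminin chains, and all 37 were listed in each of the 3 tables, which hold 16876, 16938 and 17487 genes. The hearts came from 10 male mice aged 1 week, namely 3 Ft1ko, 4 Ft1sm22ko and 3 WT animals. Ft1 is the study's name for Aktip, a gene needed to keep telomeres intact. Ft1ko mice descended from a cross of floxed Ft1F mice with CMV-cre mice, whose recombinase is active throughout the body, and Ft1sm22ko mice from a cross of Ft1F mice with sm22-cre mice, whose recombinase is driven by the promoter of Tagln, a smooth muscle gene. Only part of the cells of a heart use that promoter, which is also known to be active in the embryonic heart muscle. The WT animals are given only as wild type.

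A laminin is a cross-shaped trimer of 1 alpha, 1 beta and 1 gamma chain that assembles into the basement membrane around every heart muscle cell and under every endothelium. An integrin is a pair of 1 alpha and 1 beta subunit that spans the membrane, binds a matrix protein or a protein on another cell outside, and couples to actin inside through talin, kindlin and integrin-linked kinase. In muscle, laminin with the alpha2 chain is held by integrin alpha7 beta1 and, side by side with it, by dystroglycan. On white blood cells, integrins of the beta2 and beta7 families serve adhesion and migration.

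The values were the authors' DESeq2 results for each pair of groups, with a mean normalized count over the pair, a log2 fold change, the standard error of that change and a p-value, but no value for a single heart. The mean of each group was worked out from the pair's mean, the fold change and the number of hearts, so it has no error of its own. The only error given is the standard error of the fold change. It was estimated by the DESeq2 model and is not a spread measured directly over these hearts. Whether the hearts of 1 group overlap those of the other, and the depth of each library, are unknown for the same reason. A gene was called higher or lower where its p, adjusted by Benjamini-Hochberg over all genes of the table, was under 0.05. Every fold change is written as Ft1ko or Ft1sm22ko over WT, or as Ft1sm22ko over Ft1ko. Normalized counts are scaled within a table, so the WT means differ between the first 2 tables, and the comparisons with WT share the same 3 WT hearts.

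Aktip averaged 175 normalized counts in Ft1ko hearts, against 664 in WT hearts (log2 fold change -1.93 ± 0.27, adjusted p = 5.08e-11). It averaged 387 normalized counts in Ft1sm22ko hearts, against 894 in WT hearts (log2 fold change -1.21 ± 0.27, adjusted p = 1.07e-04). The transcript was thus lower in both mutants, and counts over the whole gene include parts outside the deletion. The 9 cardiomyocyte markers, among them Myh6 and Tnnt2, were present in every group, and 8 of them were lower in Ft1ko hearts and 5 in Ft1sm22ko hearts than in WT, with median log2 fold changes of -2.56 and -0.92. Markers of other cell types also differed. The summed means of 8 atrial markers were 56703 in Ft1ko hearts against 1419.9 in WT hearts, and 74737 in Ft1sm22ko hearts against 1918 in WT hearts, with 7 of 8 higher in each mutant. Those of 8 fibroblast markers were 98060.3 in Ft1ko hearts against 31442 in WT hearts, and 142779 in Ft1sm22ko hearts against 42342 in WT hearts, with 6 and 8 of 8 higher. Of 8 smooth muscle markers, 5 were higher and 2 lower in Ft1ko hearts, and 2 were higher and 2 lower in Ft1sm22ko hearts. In bulk RNA, fewer cells of a type and less RNA per cell cannot be told apart, and the part of these shifts in the values below was not tested.

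Promoter sequence is shown for the leukocyte integrin genes Itgam, Itgax and Itgb7 and for Itga4. The leukocyte integrin genes and Itga4 held 6 of the 9 calls lower in Ft1sm22ko than in Ft1ko hearts, though Itgam was not called. RefSeq windows on GRCm38.p6, 250 bases before to 50 bases after a transcript's start, were matched by symbol for 23 of the 37 genes (26 windows). Itgal, Itgb2, Itgae and Itgad had no entry. The letters GAGGAA, which hold the GGAA core of sites for ETS-family factors such as PU.1, a regulator of myeloid genes, were searched on both strands (TTCCTC on the other). They stood in 28.3% of all 32851 windows and in 14 of the 26 member windows. Windows of members outside the leukocyte integrins, such as Itgb1, Lama2 and Lamb2, were among these 14. In the 4 windows below, written 5′ to 3′ along the gene's strand, capitals mark these letters. They occurred 3 times in the Itgam window (chr7:128062390-128062689, plus strand), 1 time in the Itgb7 window (chr15:102231886-102232185, minus strand) and not in those of Itgax (chr7:128129300-128129599, plus strand) and Itga4 (chr2:79255176-79255475, plus strand). A match describes the letters and not a bound site.
Itgam: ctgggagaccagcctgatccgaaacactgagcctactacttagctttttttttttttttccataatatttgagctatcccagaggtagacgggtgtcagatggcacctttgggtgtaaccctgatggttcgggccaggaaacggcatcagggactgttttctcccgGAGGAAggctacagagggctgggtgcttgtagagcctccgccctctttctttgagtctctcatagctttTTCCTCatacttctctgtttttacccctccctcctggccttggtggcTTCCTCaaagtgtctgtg
Itgb7: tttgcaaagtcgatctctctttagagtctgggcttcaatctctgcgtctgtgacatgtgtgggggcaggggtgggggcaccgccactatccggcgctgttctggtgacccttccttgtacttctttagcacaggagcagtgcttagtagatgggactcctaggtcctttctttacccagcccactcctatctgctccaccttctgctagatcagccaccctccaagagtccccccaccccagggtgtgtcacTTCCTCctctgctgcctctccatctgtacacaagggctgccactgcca
Itgax: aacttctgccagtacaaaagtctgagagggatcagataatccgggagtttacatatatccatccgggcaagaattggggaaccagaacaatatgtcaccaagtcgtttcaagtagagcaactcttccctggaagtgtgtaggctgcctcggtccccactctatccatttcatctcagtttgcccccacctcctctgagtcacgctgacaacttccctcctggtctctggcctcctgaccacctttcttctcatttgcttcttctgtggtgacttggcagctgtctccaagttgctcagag
Itga4: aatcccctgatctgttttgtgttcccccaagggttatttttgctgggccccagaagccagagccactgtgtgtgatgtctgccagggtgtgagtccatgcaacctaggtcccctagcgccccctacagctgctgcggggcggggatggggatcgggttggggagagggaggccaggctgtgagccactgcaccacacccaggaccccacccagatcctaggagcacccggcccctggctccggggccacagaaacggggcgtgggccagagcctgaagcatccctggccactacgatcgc

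In Ft1ko hearts 16 of the 37 genes were higher than in WT and 2 were lower, while 19 did not pass the test. Across every gene tested there, 19.7% were called higher and 16.1% lower, so the higher calls were 43.2% of the members against 19.7% of all genes, and the lower calls 5.41% against 16.1%. The median log2 fold change of the members was 0.78, beside 0.13 for all genes. In Ft1sm22ko hearts 14 were higher and 4 lower than in WT, 37.8% and 10.8% of the members, against 16.2% and 16.0% of all genes, and the members' median was 0.60 beside 0.06. Between the mutants 4 were higher and 9 lower in Ft1sm22ko than in Ft1ko hearts, of 36 genes with a p. These were 11.1% and 25% of the members, against 10.8% and 9.0% of all genes. The stricter Bonferroni adjustment that the study used was passed by 9, 4 and 5 members in the 3 comparisons, where it was passed by 8.98%, 7.62% and 2.45% of all genes. These shares describe the list and were not tested.

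**Figure D1:**
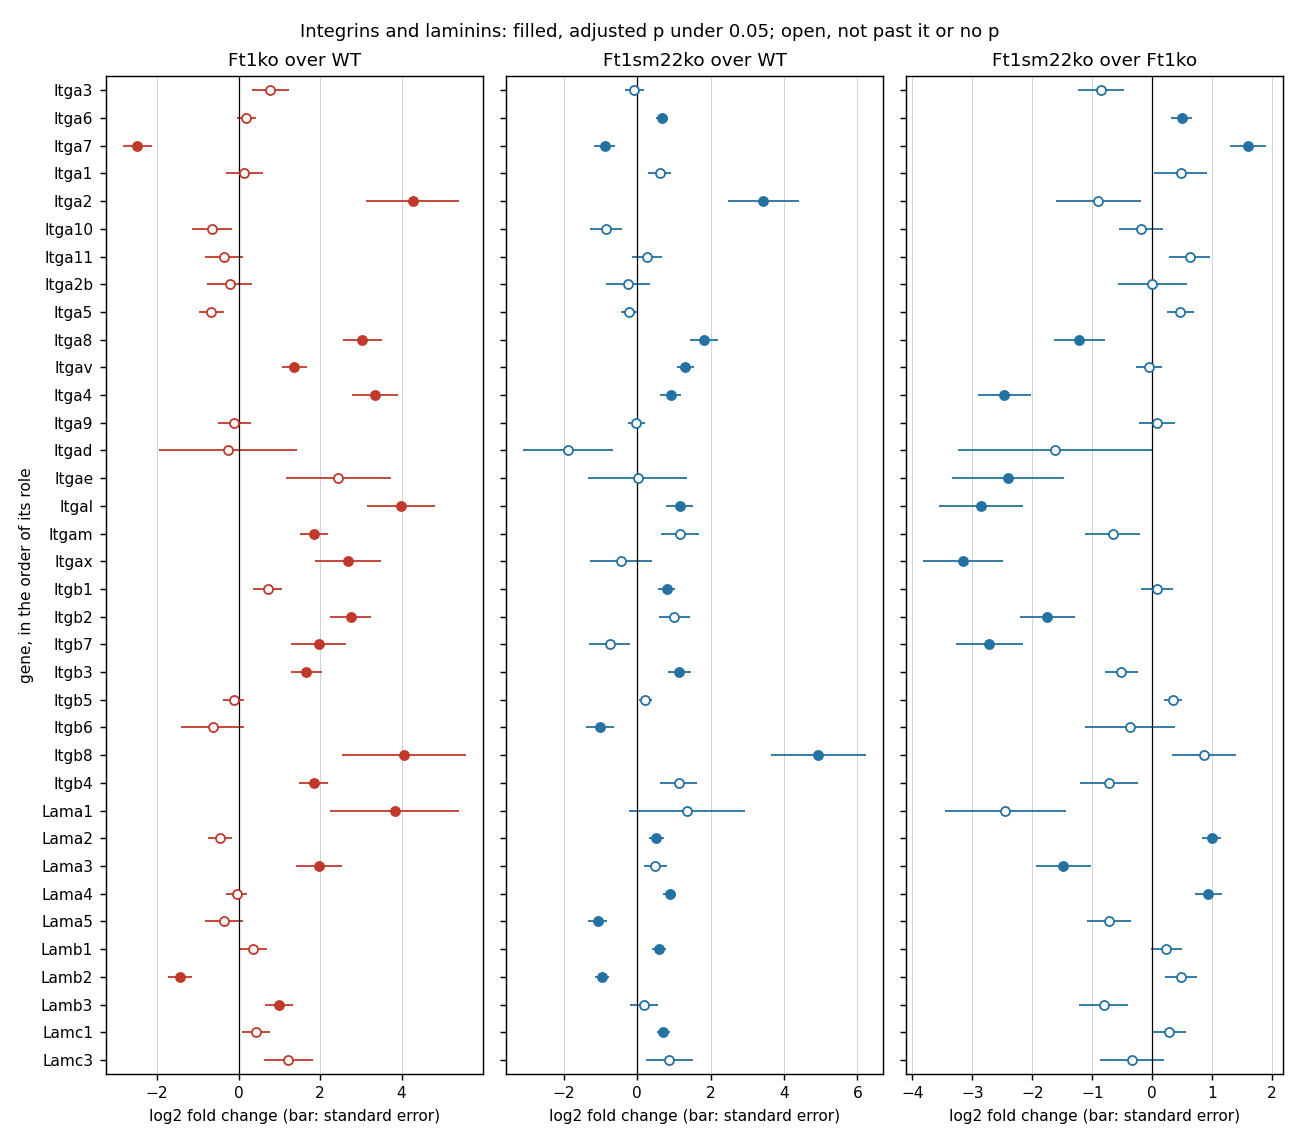
Log2 fold change (x axis, bars are the standard error) of 36 of the 37 genes (y axis, grouped by role from integrin alpha subunits down to laminin gamma chains) in panels for Ft1ko over WT (left), Ft1sm22ko over WT (middle) and Ft1sm22ko over Ft1ko (right), with filled points for an adjusted p under 0.05. Itga7 and Lamb2 lie left of 0 and filled in both comparisons with WT, while 7 of the genes shown lie right of 0 and filled in both.

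The transcript of Itga7 was lower in both mutants. Itga7, the alpha subunit of the main laminin-binding integrin of striated muscle, averaged 422 normalized counts in Ft1ko hearts, against 2362 in WT hearts (log2 fold change -2.48 ± 0.35, adjusted p = 9.38e-11), which is 5.60-fold lower. It averaged 1710.0 normalized counts in Ft1sm22ko hearts, against 3177 in WT hearts (log2 fold change -0.89 ± 0.28, adjusted p = 0.00775). The fall was deeper in the whole-body mutant, since between the mutants Itga7 averaged 2759.6 normalized counts in Ft1sm22ko hearts, against 910.1 in Ft1ko hearts (log2 fold change 1.60 ± 0.30, adjusted p = 1.05e-05). Of the 9 cardiomyocyte markers given above 8 and 5 were lower in the mutants, and 6 were higher in Ft1sm22ko than in Ft1ko hearts. Itga7 overlaps the exons of Mettl7b on the opposite strand, which averaged at most 2.78 in the mutants and 2.41 in WT in the comparisons with WT, and 4.63 in Ft1sm22ko against 3.19 in Ft1ko in the direct comparison.

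Itga6, the laminin-binding subunit of endothelium and epithelium, did not follow Itga7. It averaged 1918 normalized counts in Ft1sm22ko hearts, against 1204 in WT hearts (log2 fold change 0.67 ± 0.16, adjusted p = 3.80e-04), and 1017 normalized counts in Ft1ko hearts, against 893 in WT hearts with an adjusted p of 0.553. Per kb of exon, Itga7 had 52.1 per kb in Ft1ko hearts and 292 per kb in WT hearts, where Itga6 had 113 per kb in Ft1ko hearts and 98.9 per kb in WT hearts. In the other table Itga7 had 211 per kb in Ft1sm22ko hearts and 393 per kb in WT hearts, and Itga6 had 213 per kb in Ft1sm22ko hearts and 133 per kb in WT hearts. The level of Itga7 was thus above that of Itga6 in WT, below it in Ft1ko hearts and about equal to it in Ft1sm22ko hearts. These levels have no error, so their order within a group could not be tested. Itga6 was also higher in Ft1sm22ko than in Ft1ko hearts (log2 fold change 0.49 ± 0.17, adjusted p = 0.0283). Itga3, the remaining laminin-binding alpha subunit, passed the test in none of the 3 comparisons (0.78 ± 0.46, -0.08 ± 0.25 and -0.86 ± 0.39 on the log2 scale). Of 10 endothelial markers 0 were higher and 3 lower in Ft1ko hearts, and 2 were higher and 3 lower in Ft1sm22ko hearts. Of 5 endocardial markers, among them Npr3 and Plvap, 4 were higher in Ft1ko hearts (median log2 fold change of the 5, 2.61) and 3 in Ft1sm22ko hearts (1.99), and none was lower. The part of either cell type in the Itga6 values was not tested.

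Itgb1, the beta subunit shared by the laminin, collagen and fibronectin receptors, had the highest level per kb of exon among the integrin genes in every group of both comparisons with WT (1873 per kb in Ft1ko hearts and 1142 per kb in WT hearts, and 2666 per kb in Ft1sm22ko hearts and 1535 per kb in WT hearts). It was higher in Ft1sm22ko hearts (log2 fold change 0.80 ± 0.22, adjusted p = 0.00183). In Ft1ko hearts its fold change was of like size with a larger error (log2 fold change 0.71 ± 0.35, adjusted p = 0.101) and did not pass the test. The direct comparison gave 0.08 ± 0.27 (adjusted p = 0.877), so no difference between the mutants was detected.

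Among the laminin chains, the chain with the highest level in WT fell in both mutants. Lamb2, the beta chain enriched at neuromuscular junctions and in vessel walls, averaged 2629 normalized counts in Ft1ko hearts, against 7111 in WT hearts (log2 fold change -1.44 ± 0.30, adjusted p = 1.66e-05), and 4932 normalized counts in Ft1sm22ko hearts, against 9584 in WT hearts (log2 fold change -0.96 ± 0.19, adjusted p = 4.77e-06). Lamb1, the more widely expressed beta chain, went the other way in Ft1sm22ko hearts, with 5735 normalized counts in Ft1sm22ko hearts, against 3793 in WT hearts (log2 fold change 0.60 ± 0.19, adjusted p = 0.0072). In the whole-body mutant Lamb1 did not pass the test (log2 fold change 0.36 ± 0.32, adjusted p = 0.401). The ratio of Lamb2 to Lamb1 counts was 0.725 in Ft1ko hearts against 2.53 in WT hearts, and 0.860 in Ft1sm22ko hearts against 2.53 in WT hearts. Per kb of exon, Lamb2 stayed above Lamb1 in both mutants, at 432 against 365 in Ft1ko hearts and 811 against 578 in Ft1sm22ko hearts. Lamc1, the gamma chain of most laminins, averaged 8623 normalized counts in Ft1sm22ko hearts, against 5266 in WT hearts (log2 fold change 0.71 ± 0.18, adjusted p = 6.08e-04), and was not called in Ft1ko hearts (log2 fold change 0.43 ± 0.35, adjusted p = 0.36).

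**Figure D2:**
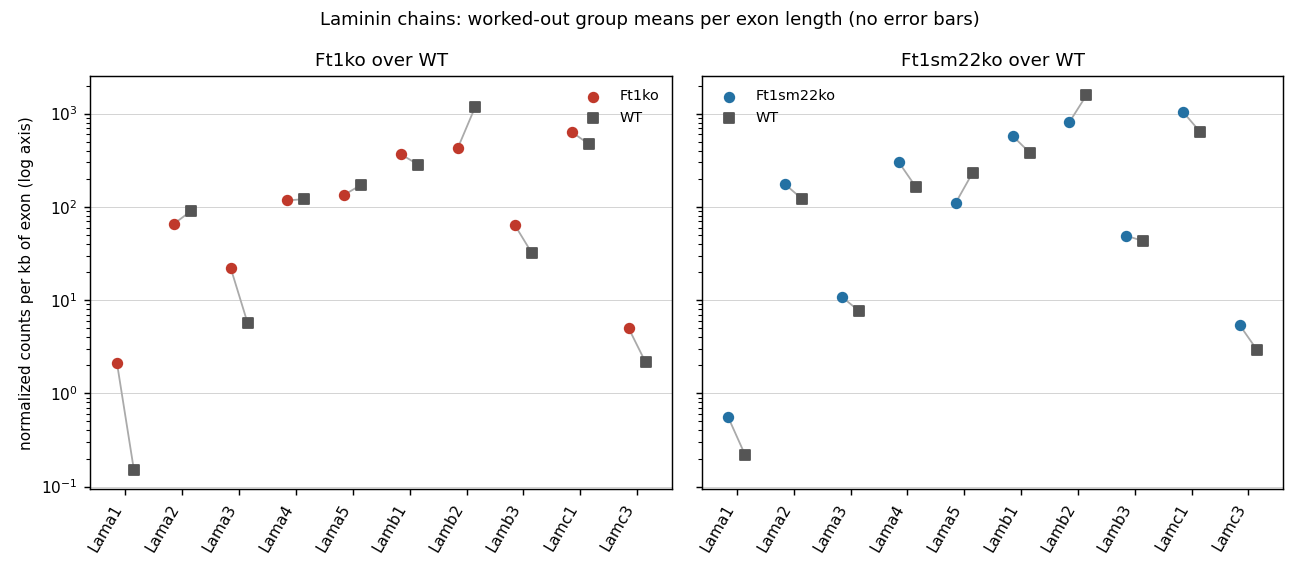
Worked-out group means of 10 of the 11 laminin chains in normalized counts per kb of exon (y axis, log scale) for Ft1ko (circles) and WT (squares) at left and for Ft1sm22ko (circles) and WT (squares) at right, with no error bars because no values per heart were used. Of the chains shown, Lamb2 was the highest in WT, and Lamc1 was the highest in both mutants.

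Of the 5 alpha chains, which carry the receptor-binding end, Lama2 and Lama4 were called higher and Lama5 lower in Ft1sm22ko hearts, while Lama1 (1.35 ± 1.57) and Lama3 (0.50 ± 0.32) did not pass the test. Lama4, the chain of endothelial basement membranes, averaged 3629 normalized counts in Ft1sm22ko hearts, against 1971 in WT hearts (log2 fold change 0.88 ± 0.18, adjusted p = 2.42e-05). Lama2, the chain of the muscle fibre's own basement membrane whose loss causes a congenital muscular dystrophy, averaged 2849 normalized counts in Ft1sm22ko hearts, against 1982 in WT hearts (log2 fold change 0.52 ± 0.20, adjusted p = 0.0299). The Lama2 call was lost when fold changes were centred on the median of all genes (adjusted p = 0.0555). Lama5, the other endothelial chain, was lower, with 1257 normalized counts in Ft1sm22ko hearts, against 2660.3 in WT hearts (log2 fold change -1.08 ± 0.26, adjusted p = 3.05e-04). Per kb of exon, Lama5 stood first of these 3 chains in WT (234 against 163 for Lama4 and 121 for Lama2) and last in Ft1sm22ko hearts (110.4 against 301 and 174). The order within a group could not be tested, because the spread of a level over hearts is not known.

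In Ft1ko hearts none of Lama2, Lama4 and Lama5 passed the test, at -0.46 ± 0.29, -0.05 ± 0.26 and -0.36 ± 0.46 on the log2 scale. The direct comparison tested the difference between mutants for Lama2 and Lama4 and found both higher in Ft1sm22ko hearts. Lama2 averaged 4585 normalized counts in Ft1sm22ko hearts, against 2310.0 in Ft1ko hearts (log2 fold change 0.99 ± 0.16, adjusted p = 7.29e-08), and Lama4 averaged 5827 normalized counts in Ft1sm22ko hearts, against 3056 in Ft1ko hearts (log2 fold change 0.93 ± 0.23, adjusted p = 8.26e-04). For Lama5 it gave -0.72 ± 0.37 (adjusted p = 0.156). For Lamb1, Lamb2 and Lamc1 it gave 0.24 ± 0.26, 0.48 ± 0.27 and 0.29 ± 0.28, none past the threshold. Among these chains a difference between the mutants was thus detected for Lama2 and Lama4 and not for Lama5, Lamb1, Lamb2 or Lamc1. Whether the chains differed from one another in this was not tested. Lama3, which was lower in Ft1sm22ko than in Ft1ko hearts, is given below.

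The RGD-binding alpha subunits, which bind fibronectin, vitronectin and latent TGF-beta through an arginine-glycine-aspartate motif, split into 2 that rose in both mutants and 2 that passed the test in neither. Itga8, a receptor of fibronectin and nephronectin on mesenchymal cells, averaged 689 normalized counts in Ft1ko hearts, against 84.1 in WT hearts (log2 fold change 3.03 ± 0.48, adjusted p = 6.92e-09), and 399.7 normalized counts in Ft1sm22ko hearts, against 113 in WT hearts (log2 fold change 1.82 ± 0.38, adjusted p = 2.26e-05). It was lower in Ft1sm22ko than in Ft1ko hearts, with 643 in Ft1sm22ko against 1492 in Ft1ko (log2 fold change -1.21 ± 0.43, adjusted p = 0.0278). Itgav averaged 627 normalized counts in Ft1ko hearts, against 243 in WT hearts (log2 fold change 1.37 ± 0.31, adjusted p = 1.01e-04), and 814 normalized counts in Ft1sm22ko hearts, against 328 in WT hearts (log2 fold change 1.31 ± 0.22, adjusted p = 9.61e-08), and the mutants did not differ detectably (-0.05 ± 0.21, adjusted p = 0.905). Itga5, the classical fibronectin receptor subunit, gave -0.67 ± 0.31 in Ft1ko hearts (adjusted p = 0.0712) and -0.21 ± 0.23 in Ft1sm22ko hearts. Itga2b, the platelet subunit, gave -0.22 ± 0.55 and -0.24 ± 0.60. Itga8 overlaps an antisense gene, E030013I19Rik, which averaged 14.0 in Ft1ko against 1.61 in WT (log2 fold change 3.13 ± 1.15, adjusted p = 0.0223), 11.6 in Ft1sm22ko against 2.13 in WT (log2 fold change 2.45 ± 1.61, adjusted p = 0.246) and 18.8 in Ft1sm22ko against 30.3 in Ft1ko (log2 fold change -0.69 ± 1.09, adjusted p = 0.715), so it was itself called higher in Ft1ko hearts.

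Of the beta subunits that pair with alphav, Itgb3 averaged 245 normalized counts in Ft1ko hearts, against 77.4 in WT hearts (log2 fold change 1.66 ± 0.38, adjusted p = 1.17e-04), and 230.1 normalized counts in Ft1sm22ko hearts, against 104 in WT hearts (log2 fold change 1.14 ± 0.31, adjusted p = 0.00147). Itgb3 also forms the platelet receptor with Itga2b, which did not pass the test, and of 7 megakaryocyte and platelet markers 1 was higher in Ft1ko hearts and none in Ft1sm22ko hearts. Itgb8, which binds latent TGF-beta, averaged 10.8 normalized counts in Ft1ko hearts, against 0.646 in WT hearts (log2 fold change 4.06 ± 1.51, adjusted p = 0.0243), and 26.0 normalized counts in Ft1sm22ko hearts, against 0.849 in WT hearts (log2 fold change 4.94 ± 1.30, adjusted p = 0.00104). A WT mean under 1 normalized count leaves the size of the Itgb8 fold loosely fixed, as the standard errors show. Itgb6, an epithelial subunit, was lower in Ft1sm22ko hearts, with 125 in Ft1sm22ko against 253 in WT (log2 fold change -1.02 ± 0.39, adjusted p = 0.0332), and gave -0.63 ± 0.77 in Ft1ko hearts. Itgb5 passed the test in none of the comparisons (-0.12 ± 0.26, 0.22 ± 0.18 and 0.35 ± 0.14).

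Among the collagen-binding alpha subunits only Itga2 passed the test, averaging 50.01 normalized counts in Ft1ko hearts, against 2.59 in WT hearts (log2 fold change 4.27 ± 1.14, adjusted p = 0.00109), and 36.5 normalized counts in Ft1sm22ko hearts, against 3.36 in WT hearts (log2 fold change 3.44 ± 0.97, adjusted p = 0.0023). Itga1, Itga10 and Itga11 gave log2 fold changes between -0.65 and 0.14 in Ft1ko hearts and between -0.85 and 0.61 in Ft1sm22ko hearts, none past the threshold. Itga2 and Itga1 are neighbours on mouse chromosome 13, with no other protein-coding gene between them in GENCODE M21. Per kb of exon Itga2 had 7.01 per kb in Ft1ko hearts and 0.364 per kb in WT hearts, and Itga1 had 25.0 per kb in Ft1ko hearts and 22.7 per kb in WT hearts. Itga9, which shares ligands with Itga4, gave -0.11 ± 0.40 and -0.02 ± 0.22 against WT.

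**Figure D3:**
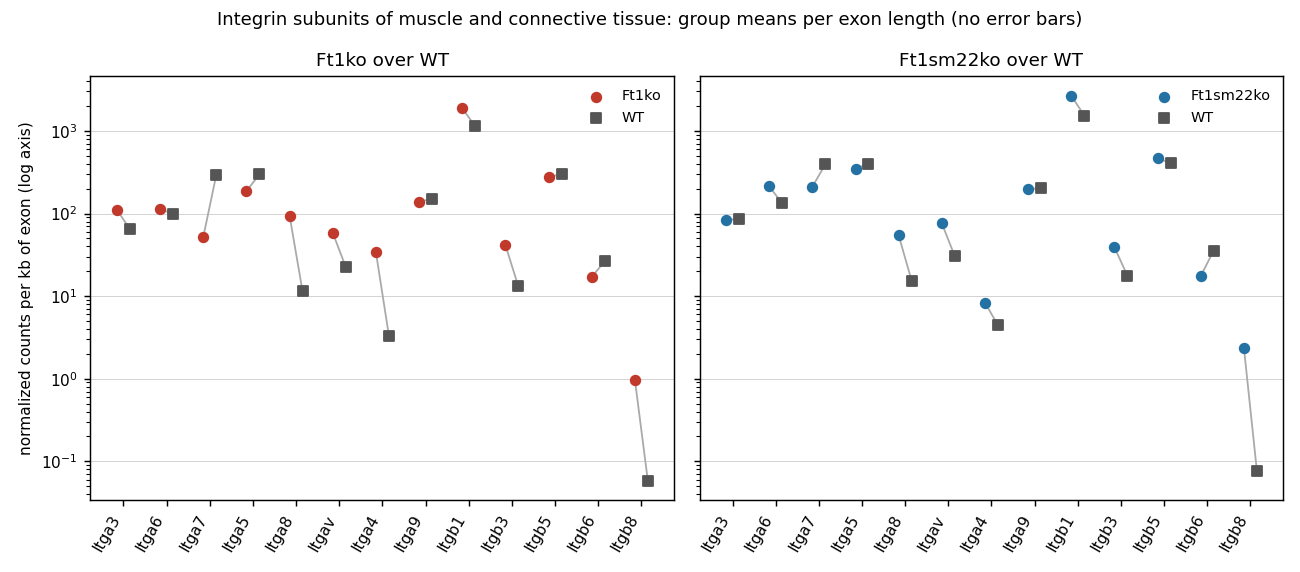
Worked-out group means of 13 integrin subunits, the epithelial Itgb6 among them, in normalized counts per kb of exon (y axis, log scale) for Ft1ko (circles) and WT (squares) at left and for Ft1sm22ko (circles) and WT (squares) at right, with no error bars. Itgb1 stands at the top of every group, Itga7 lies lower in each mutant than in WT, and Itga8, Itgav, Itga4, Itgb3 and Itgb8 lie higher.

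Of the 7 leukocyte integrin subunits 5 rose in Ft1ko hearts, where 19.7% of all genes were called higher. Itgal, the alpha subunit of LFA-1 on lymphocytes and other white cells, averaged 431 normalized counts in Ft1ko hearts, against 27.3 in WT hearts (log2 fold change 3.98 ± 0.83, adjusted p = 1.92e-05). Itgb2, the beta subunit it pairs with, averaged 262 normalized counts in Ft1ko hearts, against 38.8 in WT hearts (log2 fold change 2.75 ± 0.50, adjusted p = 8.02e-07). Itgam, the myeloid subunit of Mac-1, averaged 159.9 normalized counts in Ft1ko hearts, against 44.5 in WT hearts (log2 fold change 1.85 ± 0.34, adjusted p = 9.06e-07). Itgax, a dendritic cell and macrophage subunit, averaged 41.4 in Ft1ko against 6.46 in WT (log2 fold change 2.68 ± 0.82, adjusted p = 0.00491), and Itgb7, the mucosal homing subunit, 88.0 in Ft1ko against 22.6 in WT (log2 fold change 1.96 ± 0.67, adjusted p = 0.0136). Itga4, which pairs with Itgb1 or Itgb7 on leukocytes and is also used by the embryonic epicardium, averaged 474 normalized counts in Ft1ko hearts, against 46.6 in WT hearts (log2 fold change 3.35 ± 0.56, adjusted p = 7.57e-08). Of 8 epicardium and mesothelium markers 6 were higher in each mutant. Of the 5 leukocyte alpha subunits 3 were higher, and Itgae and Itgad did not pass the test at means of at most 12.8 in Ft1ko hearts and 9.07 in WT hearts.

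White cell markers moved with them. Of 6 genes of all leukocytes, 4 of the 5 with a p were higher in Ft1ko hearts and the summed means of the 6 were 3904 in Ft1ko hearts against 1023 in WT hearts. The summed means of 11 thymocyte and T cell genes, such as Cd3e and Rag1, were 6304 in Ft1ko hearts against 101 in WT hearts, and none of these 11 had a p. DESeq2 withholds a p where the count of 1 library is extreme for its group, so for these genes at least 1 library stood apart, and which one is not known. Macrophage genes were called higher in 2 of 8 cases (2886 in Ft1ko hearts against 2279.7 in WT hearts), and neutrophil genes in 4 of 6 with a p (1005 in Ft1ko hearts against 169.8 in WT hearts). As a ratio to the counts of Ptprc, the gene of all white cells, Itgal counts were 0.468 in Ft1ko hearts against 0.321 in WT hearts. The ratio was lower for Itga4, at 0.514 in Ft1ko hearts against 0.548 in WT hearts, and also for Itgb2 (0.284 in Ft1ko hearts against 0.457 in WT hearts), Itgam (0.174 in Ft1ko hearts against 0.523 in WT hearts), Itgb7 (0.0955 in Ft1ko hearts against 0.266 in WT hearts) and Itgax (0.0450 in Ft1ko hearts against 0.0759 in WT hearts). In the other comparison with WT it was higher for Itgam (1.28 in Ft1sm22ko hearts against 0.528 in WT hearts), Itga4 (1.09 in Ft1sm22ko hearts against 0.539 in WT hearts), Itgb2 (0.988 in Ft1sm22ko hearts against 0.455 in WT hearts) and Itgal (0.758 in Ft1sm22ko hearts against 0.315 in WT hearts), and lower for Itgb7 (0.169 in Ft1sm22ko hearts against 0.263 in WT hearts) and Itgax (0.0580 in Ft1sm22ko hearts against 0.0736 in WT hearts). These ratios have no error, were not tested and depend on the choice of Ptprc as denominator. In Ft1ko hearts the leukocyte genes with a p had log2 fold changes from 1.155 to 3.44 (median 1.71), and Ptprc had the largest rise. In Ft1sm22ko hearts the 6 ran from -0.82 to 1.03, and the mean of Ptprc was below that in WT. The part of the white cell content or of a single library in the leukocyte integrin values was not tested.

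In Ft1sm22ko hearts 1 of the 7 leukocyte subunits, and Itga4, passed the test against WT. Of all genes 16.2% were called higher there, so 1 of 7 lies near the share of all genes. Itgal averaged 80.6 in Ft1sm22ko against 36.2 in WT (log2 fold change 1.15 ± 0.37, adjusted p = 0.0082) and Itga4 116 in Ft1sm22ko against 62.0 in WT (log2 fold change 0.91 ± 0.29, adjusted p = 0.00904), both higher. Itgam and Itgb2 missed the threshold (log2 fold change 1.17 ± 0.52, adjusted p = 0.0706 for Itgam and log2 fold change 1.01 ± 0.43, adjusted p = 0.0547 for Itgb2), and Itgb2 passed it where fold changes were centred on the median of genes with a mean of 100 or more (adjusted p = 0.0422). Itgax and Itgb7 gave -0.46 ± 0.85 and -0.75 ± 0.56. Genes of all leukocytes were called higher in 1 of 6 cases, with summed means of 1568 in Ft1sm22ko hearts against 1380.3 in WT hearts, and the thymocyte and T cell genes of this table summed to 185 in Ft1sm22ko hearts against 138 in WT hearts.

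The direct comparison placed 6 of the leukocyte-associated integrins lower in Ft1sm22ko than in Ft1ko hearts, where 9.0% of all genes were called lower. Itgax averaged 10.2 normalized counts in Ft1sm22ko hearts, against 90.5 in Ft1ko hearts (log2 fold change -3.15 ± 0.66, adjusted p = 9.37e-05). Itgal averaged 128 in Ft1sm22ko against 927 in Ft1ko (log2 fold change -2.86 ± 0.70, adjusted p = 9.09e-04), and Itgb7 28.8 in Ft1sm22ko against 189.8 in Ft1ko (log2 fold change -2.72 ± 0.56, adjusted p = 5.79e-05). Itga4 averaged 185 in Ft1sm22ko against 1022 in Ft1ko (log2 fold change -2.47 ± 0.45, adjusted p = 3.83e-06), and Itgb2 168 in Ft1sm22ko against 565 in Ft1ko (log2 fold change -1.75 ± 0.46, adjusted p = 0.0024). Itgae, which pairs with Itgb7, averaged 5.08 in Ft1sm22ko against 26.9 in Ft1ko (log2 fold change -2.41 ± 0.93, adjusted p = 0.0491), a call lost when fold changes were centred on the median of all genes (adjusted p = 0.0534). Itgam did not pass the test (log2 fold change -0.65 ± 0.46, adjusted p = 0.338), and Itgad had no p. The summed means of the leukocyte genes were 2515 in Ft1sm22ko hearts against 8407 in Ft1ko hearts, with 3 of the 5 with a p called lower. Those of the thymocyte and T cell genes were 301 in Ft1sm22ko hearts against 13562 in Ft1ko hearts. Of these 11 genes only 1 had a p, and it was called lower.

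**Figure D4:**
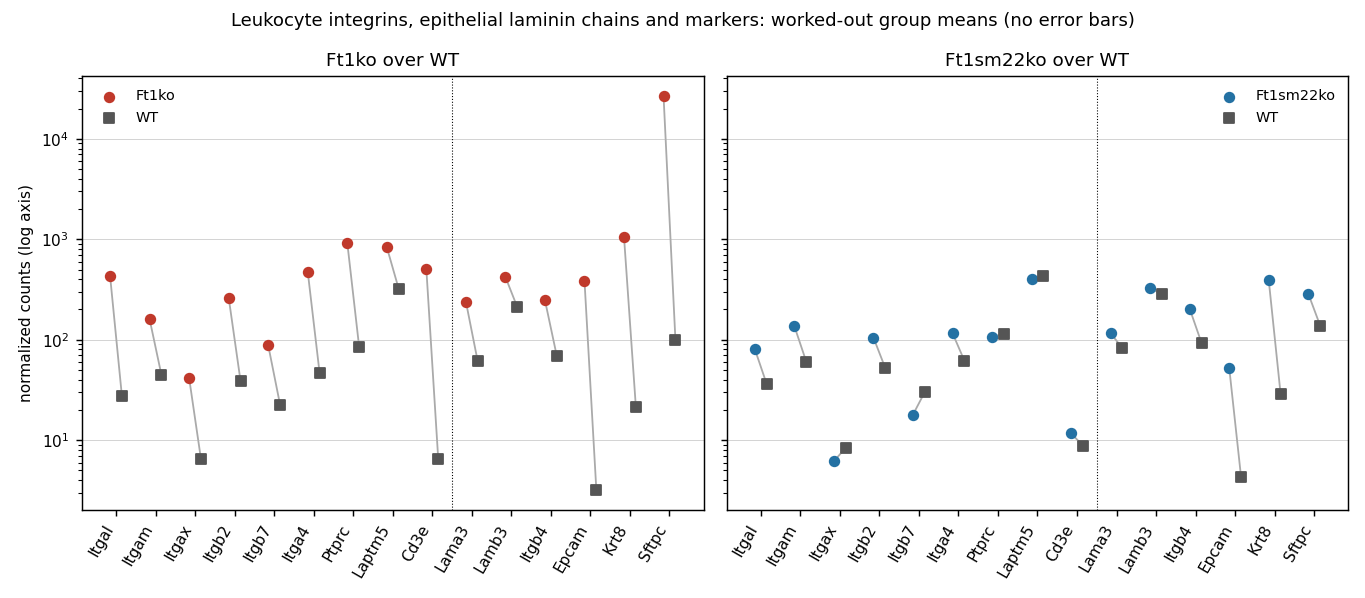
Worked-out group means in normalized counts (y axis, log scale) of leukocyte integrins with 3 leukocyte markers (left of the dotted line) and of the laminin chains Lama3 and Lamb3 and of Itgb4 with 3 epithelial markers (right of it), for Ft1ko (circles) and WT (squares) at left and Ft1sm22ko (circles) and WT (squares) at right, with no error bars. The Ft1ko circles lie above the WT squares for every gene shown, and the Ft1sm22ko circles lie below the WT squares for Itgax, Itgb7, Ptprc and Laptm5.

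Lama3 and Lamb3, chains of the laminins that anchor epithelia, were called higher in Ft1ko hearts, as was Itgb4, the beta subunit of the hemidesmosome. Lama3 averaged 239.6 in Ft1ko against 60.9 in WT (log2 fold change 1.98 ± 0.57, adjusted p = 0.0027), Lamb3 422 in Ft1ko against 211 in WT (log2 fold change 1.00 ± 0.34, adjusted p = 0.013), and Itgb4 247 in Ft1ko against 68.9 in WT (log2 fold change 1.84 ± 0.36, adjusted p = 5.34e-06). Lama1, a chain of early embryonic and epithelial basement membranes, averaged 20.7 in Ft1ko against 1.45 in WT (log2 fold change 3.83 ± 1.59, adjusted p = 0.045), a call lost when fold changes were centred on the median of all genes (adjusted p = 0.0531). Lamc3 gave 1.22 ± 0.60 (adjusted p = 0.0989). Not every epithelial member rose, since Itgb6 gave -0.63 ± 0.77 (adjusted p = 0.557) and Itga6 0.19 ± 0.23 (adjusted p = 0.553) in Ft1ko hearts. All 8 lung epithelium markers, such as Sftpc, were higher in the same hearts, with summed means of 48767 in Ft1ko hearts against 435 in WT hearts, as were 5 of 6 other epithelial markers with a p (3636 in Ft1ko hearts against 111 in WT hearts). The part of epithelial RNA in these chains was not tested.

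In Ft1sm22ko hearts none of Itgb4, Lama3 and Lamb3 passed the test against WT. Itgb4 gave 1.13 ± 0.50 (adjusted p = 0.0712), Lama3 0.50 ± 0.32 and Lamb3 0.19 ± 0.39. The lung epithelium markers summed to 3876 in Ft1sm22ko hearts against 597 in WT hearts, and 7 of the 8 had no p. Between the mutants Lama3 averaged 186 in Ft1sm22ko against 519 in Ft1ko (log2 fold change -1.48 ± 0.46, adjusted p = 0.012), lower in Ft1sm22ko hearts. The lung markers summed to 6086 in Ft1sm22ko hearts against 105673 in Ft1ko hearts, where the largest single mean was 57514. Of these 8 markers 3 were called lower in Ft1sm22ko hearts and 5 were not called.

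Sorted by mutant, 8 genes were higher than WT in both, among them Itga2, Itga4, Itga8, Itgal, Itgav, Itgb3 and Itgb8, and 2 lower in both (Itga7 and Lamb2). A further 8 were called higher in Ft1ko hearts alone, namely Itgam, Itgax, Itgb2, Itgb7, Itgb4, Lama1, Lama3 and Lamb3. Of these the direct comparison was past the threshold for Itgax, Itgb2, Itgb7 and Lama3. Another 6 were called higher in Ft1sm22ko hearts alone, namely Itga6, Itgb1, Lama2, Lama4, Lamb1 and Lamc1, and of these it was past the threshold for Itga6, Lama2 and Lama4. Itgb6 and Lama5 were called lower in Ft1sm22ko hearts alone, and neither differed between the mutants by that test. No gene was called in opposite directions in the 2 mutants, and 11 of the 37 were called in neither against WT. Such patterns were counted for the members only, and their shares among all genes were not worked out. Each mutant was set against 1 common group of 3 WT hearts, which makes the calls in the 2 mutants not independent. Whether the members differ from other genes in these patterns was not tested.

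The muscle's other hold on laminin is the dystrophin and dystroglycan complex, listed here with the enzymes that glycosylate dystroglycan and with Bcam. It was lower in Ft1ko hearts in 8 of 19 genes (42.1%, beside 16.1% of all genes) and higher in none. Sgca, a sarcoglycan, averaged 175 in Ft1ko against 1613 in WT (log2 fold change -3.20 ± 0.48, adjusted p = 7.25e-10), and Dmd, dystrophin itself, 507 in Ft1ko against 1506 in WT (log2 fold change -1.57 ± 0.26, adjusted p = 4.38e-08). In Ft1sm22ko hearts 5 were lower (26.3%, beside 16.0% of all genes) and 3 higher (15.8%, beside 16.2%), with Dmd at -0.89 ± 0.14 (adjusted p = 2.61e-08) and Sgca at -1.45 ± 0.27 (adjusted p = 1.27e-06). Between the mutants 10 of 19 were higher in Ft1sm22ko hearts (52.6%, beside 10.8% of all genes) and none lower (beside 9.0%). Sgcb (log2 fold change 0.92 ± 0.18, adjusted p = 1.88e-05) and Sspn (log2 fold change 1.18 ± 0.24, adjusted p = 5.35e-05) led the higher ones. Of the 9 cardiomyocyte markers 8 and 5 were lower in the mutants than in WT, and 6 were higher in Ft1sm22ko than in Ft1ko hearts. The part of heart muscle RNA in these values was not tested.

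Of 16 genes of other basement membrane proteins, listed here as partners of laminin, 6 were higher and 3 lower in Ft1ko hearts. In Ft1sm22ko hearts 9 were higher and 2 lower. The higher calls were 37.5% and 56.2% of the list, beside 19.7% and 16.2% of all genes, and the lower calls 18.8% and 12.5%, beside 16.1% and 16.0%. Col4a6, a type IV collagen chain, averaged 168 in Ft1ko against 29.3 in WT (log2 fold change 2.52 ± 0.45, adjusted p = 6.43e-07) and 240.3 in Ft1sm22ko against 39.7 in WT (log2 fold change 2.60 ± 0.44, adjusted p = 1.65e-07). Nid1, nidogen, the link between laminin and collagen IV, averaged 5428 in Ft1sm22ko against 2614 in WT (log2 fold change 1.05 ± 0.16, adjusted p = 1.89e-09), and Ntn4, which can break laminin networks, 325 in Ft1sm22ko against 79.6 in WT (log2 fold change 2.03 ± 0.26, adjusted p = 5.13e-13). Hspg2, perlecan, was lower in Ft1ko hearts (log2 fold change -1.26 ± 0.32, adjusted p = 6.19e-04). Between the mutants 5 of 16 were higher in Ft1sm22ko hearts (31.2%, beside 10.8% of all genes) and none lower (beside 9.0%). Smoc2 (log2 fold change 1.25 ± 0.27, adjusted p = 1.60e-04) and Col15a1 (log2 fold change 0.96 ± 0.25, adjusted p = 0.00176) had the smallest p.

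Of 23 integrin ligands other than laminin, 13 were higher and 2 lower in Ft1ko hearts, and 12 higher and 3 lower in Ft1sm22ko hearts. The higher calls were 56.5% and 52.2% of the list, beside 19.7% and 16.2% of all genes. The lower calls were 8.7% and 13% of it, beside 16.1% and 16.0% of all genes. Fn1, fibronectin, the ligand of the RGD-binding receptors, averaged 12274 normalized counts in Ft1ko hearts, against 1757 in WT hearts (log2 fold change 2.80 ± 0.27, adjusted p = 4.81e-22), and 13059.6 normalized counts in Ft1sm22ko hearts, against 2370.5 in WT hearts (log2 fold change 2.46 ± 0.31, adjusted p = 3.21e-13). Postn, periostin, a ligand of alphav integrins, averaged 12246 in Ft1ko against 1985 in WT (log2 fold change 2.62 ± 0.25, adjusted p = 4.61e-23) and 16767 in Ft1sm22ko against 2679 in WT (log2 fold change 2.65 ± 0.25, adjusted p = 9.63e-24). Fbln5, an elastic fibre protein, averaged 2567 in Ft1ko against 224 in WT (log2 fold change 3.52 ± 0.25, adjusted p = 8.80e-42). Between the mutants 1 was higher and 5 lower in Ft1sm22ko hearts (4.35% and 21.7%, beside 10.8% and 9.0% of all genes). Among them were Vtn, vitronectin (log2 fold change 2.42 ± 0.47, adjusted p = 2.06e-05), and Tnc, tenascin C (log2 fold change -2.10 ± 0.44, adjusted p = 9.39e-05). Fibroblast markers were higher in both mutants, as given above.

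Inside the cell, 12 of 31 adaptors and activators were higher and 5 lower in Ft1ko hearts, and 9 were higher and 6 lower in Ft1sm22ko hearts. The higher calls were 38.7% and 29.0% of the list in the mutants, beside 19.7% and 16.2% of all genes, and the lower calls were 16.1% and 19.4%, beside 16.1% and 16.0% of all genes, so the share of lower calls was near that of all genes. Lims2, the PINCH2 partner of integrin-linked kinase, averaged 212 normalized counts in Ft1ko hearts, against 1878 in WT hearts (log2 fold change -3.14 ± 0.39, adjusted p = 8.28e-14). Itgb1bp2, melusin, a muscle protein that binds the beta1 tail, averaged 895 in Ft1ko against 6167 in WT (log2 fold change -2.79 ± 0.47, adjusted p = 1.07e-07) and 2739 in Ft1sm22ko against 8317 in WT (log2 fold change -1.60 ± 0.21, adjusted p = 6.37e-12). Tns2 and Tns3, tensins that link integrin tails to actin, moved in opposite directions in both mutants. Tns2 gave -2.36 ± 0.39 in Ft1ko hearts (adjusted p = 3.00e-08) and -1.82 ± 0.28 in Ft1sm22ko hearts (adjusted p = 3.37e-09), and Tns3 gave 2.64 ± 0.50 in Ft1ko hearts (adjusted p = 2.22e-06) and 1.70 ± 0.25 in Ft1sm22ko hearts (adjusted p = 1.33e-09). Parvg, the parvin of white cells, was lower in Ft1sm22ko than in Ft1ko hearts (log2 fold change -3.49 ± 0.81, adjusted p = 3.99e-04). In that comparison 5 of the 31 were higher and 5 lower, 16.1% each, beside 10.8% and 9.0% of all genes.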

How the data were processed

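RNA was measured by paired-end sequencing of mRNA libraries from the hearts of 3 Ft1ko, 4 Ft1sm22ko and 3 WT male mice aged 1 week. The authors aligned the reads with STAR, counted reads per gene with HTSeq and fitted each pair of groups with DESeq2. The sources name hg38 as the genome, while the gene symbols of the tables are those of mouse, and the strand setting of the counting was not given in the sources used here. The deposited tables hold, per gene, the mean normalized count of the pair (a signal scaled within the table by the authors), the log2 fold change and the standard error of that change, the Wald score, its p-value and an adjusted p-value. Depth per library is unknown.

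These columns are the authors' own comparisons, used because the tables carry no values for single hearts. The deposited log2 fold changes were turned round in sign to give mutant over WT and Ft1sm22ko over Ft1ko. The deposited p-values were adjusted by Benjamini-Hochberg over all genes with a p (16748, 16661 and 17169), with a threshold of 0.05. Group means were solved from the pair's mean, the fold change and the numbers of hearts. For every member the difference of the 2 comparisons with WT lay within 0.0695 of the direct log2 fold change. Levels per kb used the union of exons in GENCODE M21 (GRCm38). The adjustment was tested on simulated data.

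The genes, the partner and marker lists and the tests were chosen with earlier results of these data known. The values of 1 member are not reported here, and it is left out of the plots. For the others, full values are given for each member past the threshold in at least 1 comparison and for Itgb1, Itga7, Lama2, Lamb1 and Lamc1, and for up to 4 genes of smallest p per partner list and comparison. Alternatives were Bonferroni adjustment, the deposited adjusted p, filters on means under 10 or 100, centring on the median of all genes or of genes with a mean of 100 or more, a log2 fold limit of 1, and group means solved across the 3 tables together. Python 3.11.15, pandas 2.3.3, numpy 2.4.6, scipy 1.17.1 and matplotlib 3.10.9 were used.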

Additional observations from a re-analysis of the deposited data

How the results depend on the processing

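Bonferroni adjustment left 7 of the 16 members higher in Ft1ko hearts than in WT. It left 3 of 14 higher and 1 of 4 lower in Ft1sm22ko hearts against WT, and 2 of 4 higher and 3 of 9 lower in Ft1sm22ko against Ft1ko hearts. A log2 fold change of at least 1 was reached by 7 of the members higher and 2 of those lower in Ft1sm22ko hearts against WT, and by 1 of those higher in Ft1sm22ko against Ft1ko hearts. The other counts stayed within 1.5 times under every alternative run, the deposited adjusted p and the filters on means under 10 or 100 included. Over 81 fold changes of 27 members, 31 calls were lost with Bonferroni adjustment, 3 calls ended with centring on all genes (Lama1, Lama2 and Itgae, given with the results), 1 was gained with centring on genes of higher mean (Itgb2), and none turned its direction. The median of all genes was 0.13 in Ft1ko and 0.06 in Ft1sm22ko hearts over WT, and -0.11 and -0.05 for genes with a mean of 100 or more. No paired analysis was possible because the tables hold no values for single hearts, and no heart could be left out for the same reason. Whether 1 library decides a value is therefore unknown. Itga2, Itgb8, Lama1 and Itgae had WT means of at most 3.36, and standard errors of at least 0.97 against WT.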
